A study of Homo sapiens with 2 samples.

Results

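The translation initiation factors are the proteins that bring the small ribosomal subunit, the initiator tRNA and an mRNA together at a start codon. They were taken as the protein-coding genes whose symbol starts with EIF1 to EIF6, leaving out the kinases EIF2AK2 and EIF2AK3, with only those probe sets that carry no other gene symbol. Of 19775 genes with such a probe set on the array, 47 met this rule. EIF1AY lies on the Y chromosome and is neither given nor counted here, which left 46 genes with 118 probe sets. Non-coding transcripts with an EIF name, such as EIF1B-AS1 and EIF3J-DT, were not counted as factors. EIF4A1, EIF4G3, EIF3CL, EIF4E1B, EIF4EBP3, EIF2S3B and EIF5AL1 had no probe set under this rule and were not analysed here.

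RNA came from Ca9-22 cells, an established line from a carcinoma of the gingiva, whose cells had stably taken up either an empty vector or a RUNX2 vector. RUNX2 is a runt-domain transcription factor known as a master regulator of bone formation. Both groups had been selected with blasticidin, and 1 array was hybridised per group. The comparison therefore has no replicates and no test, it cannot separate the vector from chance differences between cultures, and values are given as levels, log2 ratios and counts.

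Levels are intensities in arbitrary units, after a factor of 0.966 on the array labelled RUNX2, which makes the trimmed means of both arrays equal. Ratios are the array labelled RUNX2 over the empty vector array on the log2 scale, and the median of each array (55.3 and 51.8) was its floor. A gene was measured if a probe set exceeded the floor on at least 1 array, and the brightest such probe set stood for it. Levels of different probe sets cannot be compared. Log2 ratios of different probe sets of a gene spread with an SD of 0.293 over 6165 genes. This is a spread within the arrays and not the error between replicates. Of the 45 measured factors, 18 lay farther than this from 0, against 40.3% of all measured genes.

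The targeted gene did not settle the labels. Of its 3 measured probe sets, 2 were higher on the array labelled RUNX2 (from 204 to 854 and from 102 to 353) and 1 was lower (from 1746 to 433), so directions rest on the labels. Of 8 squamous epithelial markers, 6 had a probe set and all 6 were measured, with summed levels of 34251 with the empty vector and 43739 with the RUNX2 label. Of 5 fibroblast markers only COL1A1 was measured (1937 and 1553), 0 of 3 leukocyte markers with a probe set were measured, and of 3 endothelial markers PECAM1 and VWF lay close to the floor.

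Initiation runs through factors with separate tasks. eIF2 carries the initiator tRNA as a GTP-bound complex and eIF2B recharges it with GTP. eIF3 is the large scaffold on the small subunit, and eIF4F (the cap-binding eIF4E, the scaffold eIF4G and the helicase eIF4A) recruits the mRNA. eIF5 and eIF5B complete start codon choice and subunit joining. Many mRNAs of the translation machinery begin with a C and a stretch of pyrimidines, the 5′ terminal oligopyrimidine (TOP) tract, through which mTOR and LARP1 control their translation and stability.

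The start sites of the factors fell into 2 kinds in this respect. RefSeq start-site windows (GRCh38.p14) were used, leaving out those on chromosomes 8 and Y. The windows used covered 37 of the 45 measured factors. Of these 37 genes, 8 (21.6%) had a start at a C followed by at least 4 further pyrimidines. That was so for 5.16% of 27195 genes with a window used and 7.12% of the measured genes with one. The 8 are shown because their log2 ratios are set beside those of the other factors after the account of the complexes. Each sequence runs 15 bases before and 15 bases from the annotated start, and capitals mark the pyrimidine run from the start.
EIF2D, chr1:206612451-206612480, minus strand: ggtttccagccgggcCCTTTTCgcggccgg
EIF4B, chr12:53006441-53006470, plus strand: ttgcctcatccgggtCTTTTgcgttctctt
EIF3F, chr11:7987322-7987351, plus strand: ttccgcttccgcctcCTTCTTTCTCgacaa
EIF2A, chr3:150546772-150546801, plus strand: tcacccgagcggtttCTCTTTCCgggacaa
EIF3D, chr22:36529152-36529181, minus strand: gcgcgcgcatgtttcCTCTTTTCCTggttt
EIF3K, chr19:38619173-38619202, plus strand: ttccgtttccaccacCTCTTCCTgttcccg
EIF2S3, chrX:24054941-24054970, plus strand: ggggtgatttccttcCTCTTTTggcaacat
EIF3M, chr11:32583816-32583845, plus strand: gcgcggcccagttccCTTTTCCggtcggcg

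For contrast, the same windows are given for the factors at least 1.5-fold higher, which were picked by their ratios. None of them has such a run at any of its listed starts. Lacking a run did not go only with higher ratios. Of the 29 factors without a run, 22 were above 0 and the others below, among them EIF4EBP2 (-0.38) and EIF1 (-0.23). The capital marks the annotated first base, and for EIF5A and EIF4G1, which have 6 and 3 listed starts, the first by position is shown.
EIF5A, chr17:7306984-7307013, plus strand: atgggtgggaacccgAccacactagcgcgc
EIF2S1, chr14:67360313-67360342, plus strand: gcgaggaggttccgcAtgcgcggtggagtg
EIF4E, chr4:98929119-98929148, minus strand: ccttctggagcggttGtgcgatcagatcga
EIF4G1, chr3:184314591-184314620, plus strand: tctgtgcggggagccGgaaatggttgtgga

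Of the 46 factors, 45 were measured, and all 45 were above the floor on both arrays, so none of their ratios is a bound. EIF4A2 was the exception, with its single usable probe set under the floor on both arrays. Differences were modest. None of the 45 was 2-fold higher or lower, where 1.42% of the 12729 measured genes passed that size upwards and 1.47% downwards. At 1.5-fold, 4 factors were higher (EIF5A, EIF2S1, EIF4E and EIF4G1) and 2 were lower (EIF2D and EIF4B), against 5.77% and 6.88% of all measured genes, so the number past this size is near the background. With the deposited scale, or with equal medians, the lower count was 1, because EIF4B lies just past the threshold. Averaged over probe sets, the counts were 2 higher (EIF5A and EIF4G1) and 1 lower (EIF2D). The median log2 ratio of the factors was 0.06, beside -0.06 over all measured genes, and 28 of 45 were above 0, where 42.7% of all measured genes were. Among the 9174 genes at or above the lowest level of a factor, 48.3% were above 0, 6.71% passed 1.5-fold upwards and 6.99% downwards.

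**Figure D1:**
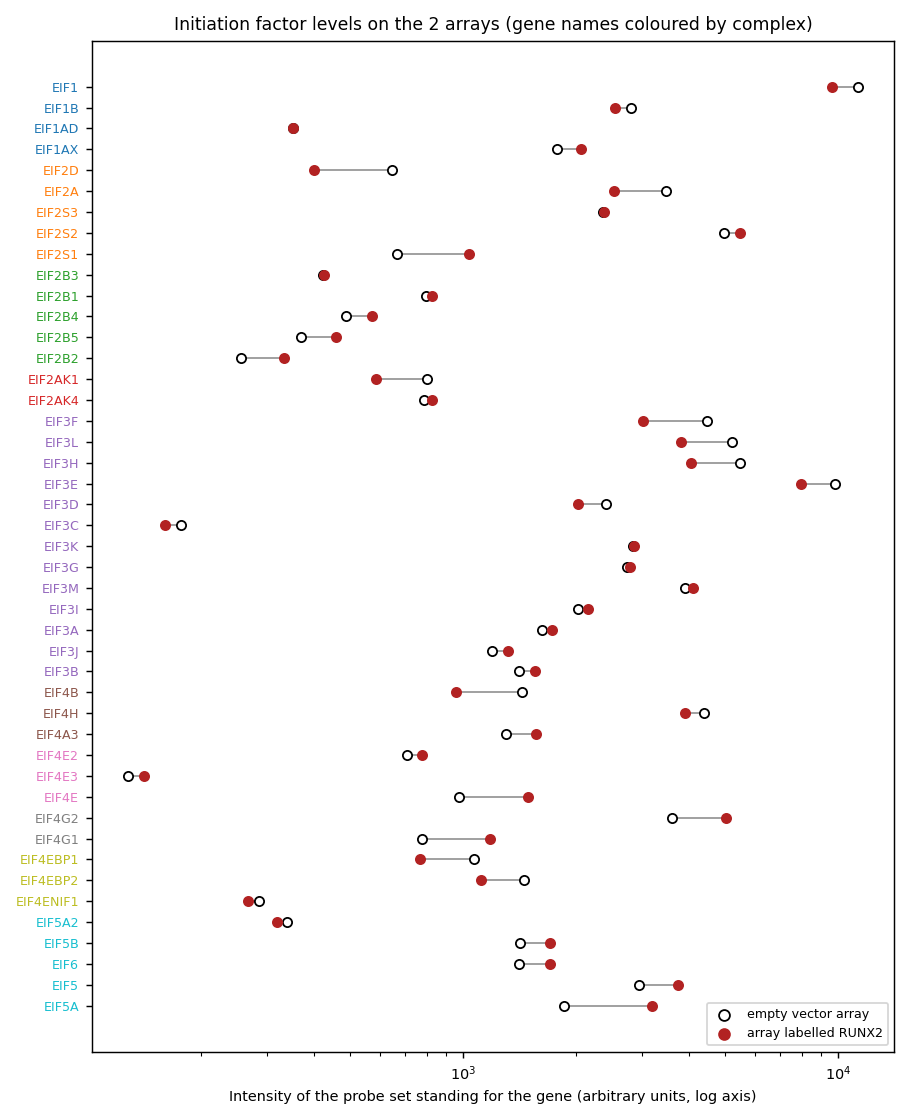
Intensity of the probe set standing for each of the 45 measured initiation factors (x axis, arbitrary units, log scale) on the empty vector array (open circles) and the array labelled RUNX2 (filled circles), with gene names coloured by complex and 1 array per group. Lines are short throughout: the widest differences are those of EIF5A (1862 and 3182) and EIF2D (646 and 400), and none reaches 2-fold.

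Among the cap-binding and scaffold genes, EIF4E and EIF4G1 were at least 1.5-fold higher. EIF4E, which binds the mRNA cap, had a level of 975 with the empty vector and 1492 with the RUNX2 label, 1.53-fold higher. Its other measured probe sets had log2 ratios of 0.38 and 0.18, so all 3 lay above 0 but only the brightest passed 1.5-fold. EIF4G1, the main scaffold that joins eIF4E, eIF4A and eIF3, went from 777 to 1182, 1.52-fold higher, and its second probe set went from 177 to 310, with a log2 ratio of 0.81. Both EIF4G1 probe sets are thus higher by about the same size. EIF4G2 encodes DAP5, a relative that lacks the eIF4E site and serves cap-independent initiation. Its level was 3611 and 5026, a log2 ratio of 0.48, while a dim second probe set (122 and 98.8) had -0.31 and the mean of both was 0.084.

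The relatives of EIF4E differed less. EIF4E2, a cap-binding protein that represses translation, had levels of 710 and 774, with log2 ratios from -0.12 to 0.47 over 4 probe sets. EIF4E3, another family member, had 128 and 141, with 0.14 and -0.24 in its probe sets. The 3 measured cap-binding genes had a median log2 ratio of 0.14.

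The eIF4E-binding proteins had log2 ratios below 0 in their brightest probe sets. The products of EIF4EBP1 and EIF4EBP2 compete with eIF4G for eIF4E until mTOR phosphorylates them. EIF4EBP1 went from 1071 to 768, 1.39-fold lower, in its single probe set. EIF4EBP2 had 1448 and 1116, a log2 ratio of -0.38, but its other measured probe sets had -0.06 and 0.24. EIF4ENIF1, the transporter that carries eIF4E to the nucleus and to P-bodies, had a log2 ratio of -0.10. All 3 lay below 0, where 57.3% of all measured genes did, with a median of -0.38, and none passed 1.5-fold. Averaged over probe sets this median was -0.10.

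The helicase partners were spread. EIF4B, which stimulates eIF4A, went from 1437 to 955, just past 1.5-fold lower, and all 3 of its probe sets were lower, with log2 ratios of -0.59, -0.38 and -0.30. EIF4H, a related cofactor, had 4378 and 3894 and a log2 ratio of -0.17. EIF4A3, the eIF4A relative that forms the core of the exon junction complex, had 1303 and 1566 and a log2 ratio of 0.27. EIF4A1 and other probe sets of EIF4A2 carry symbols of small nucleolar RNAs as well, so the helicase itself is not described.

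Among the factors that deliver the initiator tRNA, the subunits of eIF2 differed in their ratios. EIF2S1 encodes eIF2alpha, the subunit phosphorylated in the integrated stress response. Its level was 668 and 1036, 1.55-fold higher, and its other probe sets had log2 ratios of 0.26 and 0.41. EIF2S2 (eIF2beta) had 4959 and 5487, a log2 ratio of 0.15, with -0.40 in a dimmer probe set. EIF2S3 (eIF2gamma, which binds GTP and the tRNA) had 2358 and 2376, a log2 ratio of 0.01, with -0.30 and -0.50 in the other probe sets. Only for EIF2S1 did every probe set lie on the same side of 0.

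EIF2A and EIF2D are separate proteins that can deliver tRNA to the ribosome without eIF2. Both were lower. EIF2D went from 646 to 400, 1.61-fold lower and the lowest ratio of all 45. EIF2A had 3474 and 2522, 1.38-fold lower. Each has 1 probe set, so neither value has a second reading within the arrays.

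All 5 subunits of eIF2B, the exchange factor that reloads eIF2, had log2 ratios above 0, with a median of 0.24, where 42.7% of all measured genes and 48.3% of those at or above the lowest level of a factor were above 0. EIF2B2 (beta) was highest, from 255 to 333, a log2 ratio of 0.38. EIF2B5, the catalytic epsilon subunit, went from 370 to 457, a log2 ratio of 0.30. EIF2B4 (delta) had 0.24 and 0.30 in its probe sets, EIF2B1 (alpha) 0.06 and EIF2B3 (gamma) 0.00. None passed 1.5-fold, and after quantile normalization, after loess or with the floor as an offset 4 of 5 were above 0, with EIF2B3 on the other side.

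Of the eIF2 kinases kept by the rule, EIF2AK1 encodes HRI, which senses haem and mitochondrial stress. It had a level of 800 and 584, a log2 ratio of -0.45, but a dim probe set under the floor on the empty vector array gave a bound of 0.67 the other way. EIF2AK4 encodes GCN2, which senses uncharged tRNA, and had 788 and 828, a log2 ratio of 0.07. The kinases left out by the rule, EIF2AK2 (PKR) and EIF2AK3 (PERK), had log2 ratios of 0.32 and -0.33.

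Subunits of eIF3 lay on both sides of 0. The 13 measured ones had a median log2 ratio of 0.00, with a longer tail downwards (from -0.56) than upwards (to 0.14). Of them, 7 were above 0 and 6 below. Above 0 were 42.7% of all measured genes and 48.3% of those at or above the lowest level of a factor. None passed 1.5-fold, where 5.77% of all measured genes did upwards and 6.88% downwards. Averaged over probe sets, 5 of 13 were above 0. The lower subunits were EIF3F, EIF3L, EIF3H, EIF3E and EIF3D. EIF3F went from 4468 to 3023, 1.48-fold lower, with 0.45 the other way in a dim probe set (71.2 and 97.4). EIF3L had 5199 and 3818, 1.36-fold lower. EIF3H had 5466 and 4048, 1.35-fold lower, and its second probe set had a log2 ratio of -0.19. EIF3E had 9822 and 7950, a log2 ratio of -0.31, with -0.45 in its second probe set. EIF3D, the subunit that can bind the cap of selected mRNAs, had 2404 and 2022, a log2 ratio of -0.25.

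The other subunits lay close to 0. EIF3B, the scaffold that holds EIF3G and EIF3I, had 1413 and 1558, a log2 ratio of 0.14 and the highest of the complex by the brightest probe sets. EIF3J had 0.14, EIF3A, the largest subunit, 0.09, EIF3I 0.09, EIF3M 0.07, EIF3G 0.03 and EIF3K 0.00. Several straddled 0 over their measured probe sets. EIF3B ran from -0.20 to 0.16, EIF3J from -0.14 to 0.14 and EIF3A from -0.14 to 0.11. EIF3M ran from -0.26 to 0.44 and EIF3K from -0.09 to 0.00. EIF3C had -0.14 in a probe set of low level (177 and 161). Divided by architecture, the 8 subunits with PCI or MPN domains, which form the core octamer, had a median log2 ratio of -0.22, and the 5 others had 0.09. EIF3A, EIF3K and EIF3M lie in the octamer without being lower, and EIF3D outside it was lower. This division was made after the values were seen.

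Of the 5 factors of subunit joining and eIF5A, 4 were above 0, with a median log2 ratio of 0.28. Above 0 were 42.7% of all measured genes and 48.3% of those at or above the lowest level of a factor. EIF5A, the hypusinated protein that helps ribosomes through difficult peptide bonds, had the highest ratio of all 45. Its level went from 1862 to 3182, 1.71-fold higher, and its other probe sets had log2 ratios of 0.56 and 0.48. EIF5, the GTPase activator of eIF2, had 2949 and 3729, a log2 ratio of 0.34, and all 5 of its probe sets were higher, from 0.34 to 0.72. EIF5B, the GTPase that joins the large subunit, had 1418 and 1709, a log2 ratio of 0.27, and all 6 of its probe sets were higher, from 0.27 to 0.81. For EIF5 and EIF5B the brightest probe set therefore gives the lowest or nearly the lowest ratio. EIF6, which keeps free large subunits from joining, had 1405 and 1700, a log2 ratio of 0.28.

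EIF5A2, the less widely expressed paralog of EIF5A, did not share that size. Its level was 339 and 319, a log2 ratio of -0.09, with 0.20 and 0.52 in dimmer probe sets, so its direction depends on the probe set.

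The scanning factors were near 0. EIF1, which guards the start codon, had a level of 11284 and 9631, a log2 ratio of -0.23, and its other bright probe sets had -0.14 to -0.18. A dimmer EIF1 probe set went from 305 to 596, with a log2 ratio of 0.97, and another from 235 to 310, with 0.40. EIF1B, its paralog, had 2804 and 2542, a log2 ratio of -0.14. EIF1AX, which promotes scanning, had 1781 and 2062, a log2 ratio of 0.21, with values from -0.29 to 0.65 over 4 probe sets. EIF1AD, a nuclear protein related to eIF1A by sequence, had 0.00.

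Probe sets of a factor often disagreed in sign. Of 27 factors with at least 2 measured probe sets, 11 had all of them on the same side of 0, where 60% of 6165 genes did. Higher in every probe set were EIF5A, EIF5, EIF5B, EIF4E, EIF4G1, EIF2S1 and EIF2B4. EIF1AD counts with them, but its brightest probe set showed almost no difference (351 and 352). That value was below 0 after quantile normalization, after loess and with the floor as an offset. Lower in every probe set were EIF4B, EIF3E and EIF3H.

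**Figure D2:**
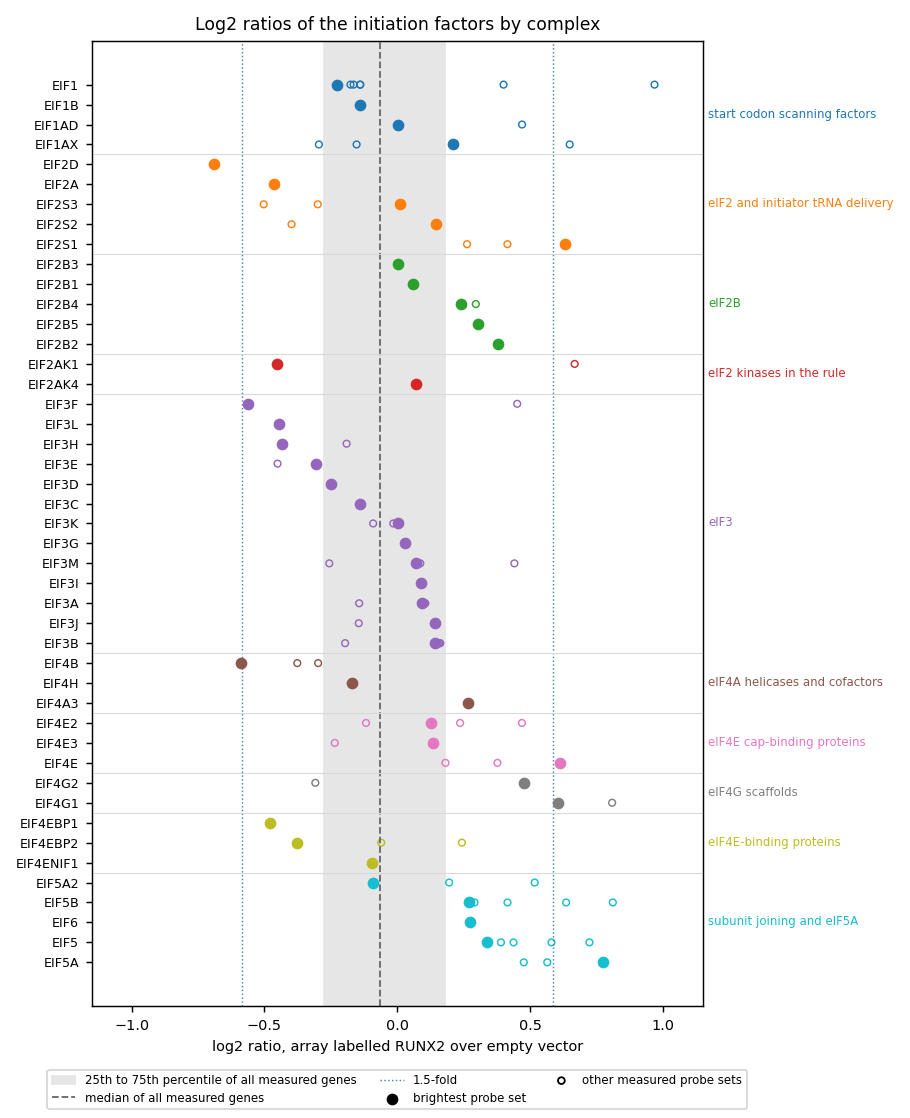
Log2 ratio of the array labelled RUNX2 over the empty vector array (x axis) for each measured factor, grouped by complex. Filled points are the brightest probe set, open points the other measured probe sets, the grey band the 25th to 75th percentile of all 12729 measured genes (-0.28 to 0.18), the dashed line their median and the dotted lines 1.5-fold. EIF5A, EIF5, EIF5B, EIF4E and EIF4G1 lie above 0 in every probe set and EIF4B, EIF3E and EIF3H below 0, while EIF1 and EIF1AX straddle it.

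The log2 ratios were set beside the pyrimidine run at the start. The 8 factors with a run had a median log2 ratio of -0.36, from -0.69 to 0.07, and 3 of 8 were above 0. The 29 without had a median of 0.14, from -0.38 to 0.77, and 22 of 29 were above 0. The ranges overlap. EIF2D, EIF4B, EIF3F, EIF2A and EIF3D, with a run, were lower, and EIF3K, EIF2S3 and EIF3M, also with a run, were within 0.07 of 0. For the factors with an intensity of 1000 or more on both arrays, the medians were -0.12 with a run and 0.18 without. Above 0 were 3 of 6 (50%) and 10 of 14 (71.4%), where 32.4% and 51.3% of other genes at this intensity were. Leaving out probe sets that can match several transcripts gave medians of -0.12 for 6 with a run and 0.15 for 22 without. Of these 3 and 16 were above 0, where 41.4% of all genes measured that way were.

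In the rest of the transcriptome the medians lay closer together. Leaving out initiation, elongation and ribosomal protein genes, 688 measured genes with a run had a median log2 ratio of -0.13, with 31.5% above 0, and 9501 without had -0.05, with 44.7% above 0. At an intensity of 1000 or more on both arrays the medians were -0.11 over 145 genes and 0.01 over 1531, with 32.4% and 51.3% above 0. Ribosomal protein genes, the best known TOP transcripts, had -0.16 over 34 genes with a run and -0.11 over 16 without. The run was searched for after the ratios were known, and whether it bears on the differences was not tested. EIF3A, EIF3E, EIF3G, EIF3H, EIF3L, EIF2S2, EIF2AK1 and EIF4EBP1 had no window among those used and were not in this comparison. Several of the lower factors are thus missing from it. EIF4EBP1, EIF2AK1, EIF3L, EIF3H and EIF3E had log2 ratios from -0.48 to -0.31, and EIF3G, EIF3A and EIF2S2 from 0.03 to 0.15.

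**Figure D3:**
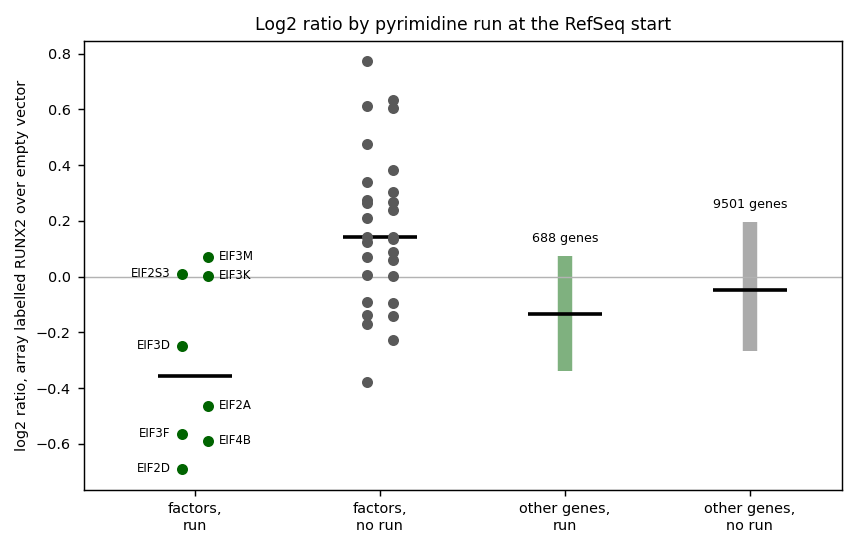
Log2 ratio of the array labelled RUNX2 over the empty vector array (y axis) for the 8 factors with a pyrimidine run at a RefSeq start, the 29 without, and all other genes except elongation factors and ribosomal proteins. Points are genes, black bars medians, and the wide bars run from the 25th to the 75th percentile. The medians are -0.36 and 0.14 for the factors and -0.13 and -0.05 for the other genes, and the factors' points overlap.

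The core motif bound by RUNX proteins, TGTGGT, was searched on both strands of the 300-base windows from 250 bases before to 50 bases after each start. Of the 37 measured factors with a window, 3 held it (8.11%), where 15.6% of 27195 genes did. They were EIF5A, EIF2B2 and EIF3C, with log2 ratios of 0.77, 0.38 and -0.14. In EIF3C the match begins 48 bases before the start, and in EIF5A it lies at the first listed start, in the window printed above, as accaca on the strand shown. A match is a description of the letters and not a binding site.

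The other genes of the translation machinery differed by list. All 5 measured genes of the elongation list lay below 0, where 57.3% of all measured genes did. Their median log2 ratio was -0.32, and none passed 1.5-fold. This median was the value of EEF2K, which encodes a kinase of EEF2 and is not itself an elongation factor. EEF2, the translocase, had levels of 9211 and 7244, a log2 ratio of -0.35, and -0.35 in its second probe set. EEF1A2 had a bound of -0.54, since it was under the floor on the array labelled RUNX2, and EEF1A1, which delivers tRNA, had -0.23, with values from -0.72 to 0.21 over its 6 probe sets. All 5 measured poly(A)-binding proteins and partners also lay below 0, with a median of -0.15, which was -0.062 with equal medians. The highest of them, PAIP2, was at -0.018. PAIP2B, an inhibitor of poly(A)-binding protein, had -0.48 and PABPC1 -0.23. The median of these 5 was the value of PABPC3. PABPC1 and PABPC3 each had 1 measured probe set, of the kind that can match several transcripts.

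The regulators of initiation showed no common direction. Of 15 measured genes of mTOR, S6 kinase and MNK control, 7 were above 0, where 42.7% of all measured genes were. Their median was -0.05, and none passed 1.5-fold. AKT1S1, an mTOR inhibitor, had 0.49 near the floor (59.5 and 83.5), and RICTOR, of mTOR complex 2, had -0.45. Among 7 genes of the eIF2 phosphatase and the other eIF2 kinases the median was 0.10. PPP1R15A, the stress-induced phosphatase subunit GADD34, had 0.55 (111 and 163), and a bound of 0.62 in its second probe set. The 5 genes of polyamine synthesis and eIF5A hypusination, which activate eIF5A, had a median of 0.06. SRM, spermidine synthase, had 0.47, and the hypusination enzymes DHPS and DOHH had -0.22 and -0.14, beside 0.77 for EIF5A.

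Of 8 genes of reinitiation, non-canonical initiation and eIF5-mimic proteins, 7 were above 0, where 42.7% of all measured genes were. Their median log2 ratio was 0.12. BZW1, an eIF5-mimic protein that competes with eIF5, went from 1370 to 2361, 1.72-fold higher, and its second probe set went from 484 to 860. It was the only gene of the 7 lists past 1.5-fold. Its paralog BZW2 had 3474 and 2710, a log2 ratio of -0.36, and ABCF1, which stimulates eIF2 binding to ribosomes, had 0.47. The 5 measured termination and recycling genes had a median of 0.11. GSPT1, the release factor eRF3a, had 0.33 in its brightest probe set and values from -0.23 to 0.31 in the others, and HBS1L had 0.18.

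**Figure D4:**
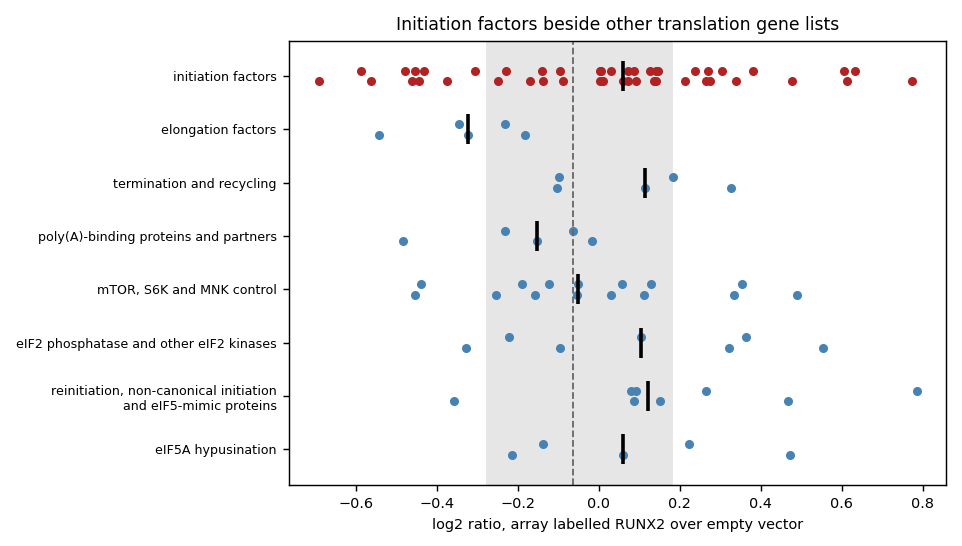
Log2 ratio of the array labelled RUNX2 over the empty vector array (x axis) for the measured initiation factors (top row) and 7 other lists of translation genes. Points are genes, black bars medians, and the grey band and dashed line the 25th to 75th percentile and median of all measured genes. All genes of the elongation list lie below 0 (median -0.32, the value of EEF2K), and BZW1 at 0.78 is the highest point.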

How the data were processed

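Total RNA of 2 samples, grouped by their titles, was hybridised to Affymetrix arrays, 1 per group. The deposited table holds a linear intensity from each array for 54675 probe sets, made with MAS5 per the submitters' processing notes, and its scaling target is not given in the sources used here. Here 54613 probe sets that are not controls were kept, and the array labelled RUNX2 was scaled by 2% trimmed means. Probe sets were named from the platform annotation, with 41091 having 1 symbol, updated by Entrez ID to RefSeq symbols (GRCh38.p14). Start-site windows are RefSeq's, less those on the chromosomes left out above. Values below the floor were raised to it. Genes were counted at 1.5-fold and 2-fold, beside the share of all measured genes. The 10 alternatives changed the scaling, floor or probe set rule.

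Every measured factor could be named, with the highest and lowest of each complex, those past 1.5-fold and pairs of paralogs given in full, and up to 2 genes with the widest ratio for each other list. BZW2, EEF1A1, EEF2K, PAIP2, PABPC3, DHPS, DOHH and the other eIF2 kinases were named after their values were seen. Members and lists were chosen with earlier results of these data known. Python 3.11.15, pandas 2.3.3 and scipy 1.17.1 were used. The functions were tested on simulated arrays. The number of arrays limits the precision.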

Additional observations from a re-analysis of the deposited data

How the results depend on the processing

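With 1 array per group no replicate could be left out. No paired analysis was possible because the result comes from no test and each group holds 1 sample. Medians were taken as moved at 0.1 on the log2 scale. Under the 10 alternatives the median of the factors ran from 0.01 to 0.15, none of the measured factors passed 2-fold, and 32 of 45 kept their sign wherever measured. The share of all measured genes above 0 also moved, from 37.5% (floor at the 25th percentile) to 53.5% (equal medians). At these 2 settings 28 and 29 of the 45 factors were above 0. The number of factors at least 1.5-fold higher was 2 when the floor was added as an offset and 2 with the mean over probe sets. It was 1 without probe sets ending in _x_at or _s_at, which measured 35 factors. That 1 was EIF1, which is lower in the main result. EIF2S1 and EIF4E then had log2 ratios of 0.26 and 0.18, and EIF5A, EIF4G1 and EIF2D were not measured. The number at least 1.5-fold lower was 1 under each of these 3 settings, with the deposited scale and with equal medians. Without probe sets ending in _x_at or _s_at that factor was EIF4B (-0.59), and under the others it was EIF2D. EIF5A, EIF2D and EIF4G1 stayed on their side of 0 wherever measured. The cap-binding genes had a median of 0.37 at a floor of the 75th percentile. Averaging over probe sets gave medians of 0.089 for scanning factors, -0.26 for eIF2 and tRNA delivery, 0.089 for the eIF2 kinases, 0.40 for the scaffolds, -0.10 for the eIF4E-binding proteins, 0.45 for subunit joining and eIF5A, and 0.24 for reinitiation genes. Without _x_at and _s_at probe sets, eIF2 and tRNA delivery had -0.19, eIF3 -0.14 and the factors with a pyrimidine run -0.12, while EIF3F turned to 0.45, EIF1 to 0.97, EIF1AX to -0.29, EIF2S2 to -0.40 and EIF3A to -0.14. These alternatives use other probe sets of the same genes, and the settings for the pyrimidine runs were added after seeing the data.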
